A study of Homo sapiens with 26 samples.

Results

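The MYC, MAX and MXD transcription factor network was followed as 10 genes, MYCN, MYC, MAX, MXD1, MXD3, MXD4, MXI1, MNT, MGA and MLX, chosen by symbol from the 26485 genes of the count tables. All 10 were listed, and 9 passed the filter on low counts, the exception being MYC. Libraries were made from KELLY, a MYCN-amplified cell line derived from a human neuroblastoma. A lentiviral vector that expresses its insert under doxycycline had been put into these cells. It was empty (EV, genotype F1HUTG) or held a hairpin against RUNX1T1, labelled sh4 or shAMB. Exposure to doxycycline or to DMSO lasted 72 h, in 3 replicates per group, which gave 18 libraries in 6 groups. Another 8 libraries came from tumours of KELLY cells grown in immunodeficient mice, 4 labelled control (control food) and 4 labelled RUNX1T1 KO (doxycycline food). The labels do not say which hairpin those cells carried. The paper used in its xenografts the hairpin built on an Ambion siRNA sequence. The label shAMB may stand for that hairpin, so xenografts and shAMB cells may not be independent of each other in this respect. All cultured cells, controls included, held a vector. Nothing in the labels ties the replicates to separate cultures, so p-values measure the spread between these libraries, which may be technical.

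MYC family proteins bind DNA as dimers with MAX at E-box elements and activate transcription. The MXD proteins (MXD1, MXD3, MXD4 and MXI1) and MNT compete for MAX, bind the same elements and recruit SIN3 co-repressors. MGA pairs with MAX inside a Polycomb complex, and MLX pairs with MondoA (MLXIP) in a branch that senses glucose metabolites. In MYCN-amplified neuroblastoma MYCN takes the place that MYC holds in many other tumours, and KELLY cells owe their high MYCN to gene amplification.

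The canonical E-box CACGTG, a palindrome that reads the same on both strands, is the element these dimers share, so the RefSeq promoters (GRCh38.p14, 250 bases before to 50 bases after the start) were searched for it. It was in 7.26% of all 35116 windows and in 3 of the 14 windows of the 9 members with an entry. The 3 matches are shown because they mark the members whose own promoters hold the element. Capitals mark the E-box, and each sequence runs 5′ to 3′ on the strand of the gene.
MXD4: gccgggccacCACGTGctgttgctaa
MNT: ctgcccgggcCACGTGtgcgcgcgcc
MLX: gggcgcgggtCACGTGggcacgccac
The MXD4 stretch lies at chr4:2262332-2262357 on the minus strand, with the E-box beginning 238 bases before the start. The MNT stretch lies at chr17:2401238-2401263 on the minus strand, 193 bases before the start. The MLX stretch lies at chr17:42567040-42567065 on the plus strand, 50 bases before the start. No match was found in the windows of MYCN, MAX, MXD1, MXD3, MXI1 or MGA, which says only that these letters are not in those windows. A match is a description of the sequence and not a measured binding site.

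The libraries held 35115915 to 54736733 expected counts in culture and 47346063 to 62378060 in xenografts. Levels are given as CPM, each count scaled to the library total after TMM scaling within each of the 2 tables, and a gene was called changed at an edgeR quasi-likelihood adjusted p below 0.05. RUNX1T1, which the hairpins target, was measured first as a check of the labels. Its mean level was 34.3 ± 0.90 CPM (SD, n = 3) in sh4 DMSO and 31.8 ± 1.94 in sh4 doxycycline, and 40.9 ± 1.04 in shAMB DMSO against 42.5 ± 1.41 in shAMB doxycycline. In xenografts it was 35.5 ± 5.51 (n = 4) in controls and 30.2 ± 5.19 in tumours labelled RUNX1T1 KO. None of the 3 differences was called (edgeR adjusted p = 0.117, 0.378 and 0.229), so the groups below carry the names of the labels only. This check covers mRNA, and these libraries do not measure protein. The paper reports less RUNX1T1 protein in KELLY cells given doxycycline, with either of its hairpins, and loss of RUNX1T1 staining in KELLY xenografts. With the trends in gene length and GC content removed from each library, RUNX1T1 was called lower with sh4 (log2 fold change -0.23, edgeR adjusted p = 0.000405) and in xenografts (-0.38, edgeR adjusted p = 0.00891), and not with shAMB (-0.10, edgeR adjusted p = 0.0534). In EV cells, which hold no hairpin, RUNX1T1 was at 41.9 ± 2.41 CPM with DMSO and 37.6 ± 1.05 CPM with doxycycline, without overlap, a log2 fold change of -0.16 (-0.15 with the trends removed) that was not called (edgeR adjusted p = 0.672 and 0.281). The sh4 effect differed from the EV effect by 0.04 (edgeR adjusted p = 0.686), or by -0.08 with the trends removed (edgeR adjusted p = 0.324). The shAMB effect was higher than the EV effect by 0.21 (edgeR adjusted p = 0.0353), a call lost with the trends removed (0.05, edgeR adjusted p = 0.561). Among DMSO libraries it was lower in sh4 than in EV cells by a log2 fold change of -0.29 (edgeR adjusted p = 0.0144). The defining neuroblastoma markers (10 genes, HAND2 and DBH among them) were above 3 counts in every group.

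MYCN, the amplified driver of this line, rose under sh4, under shAMB and in tumours labelled RUNX1T1 KO. In sh4 cells MYCN was at 2323, 2218 and 2035 CPM with DMSO and at 3246, 3202 and 4090 CPM with doxycycline. In shAMB cells it was at 2085, 2130 and 2170 CPM with DMSO and at 5944, 6442 and 6561 CPM with doxycycline. In both lines every doxycycline library was above every DMSO library, and the third sh4 doxycycline library was the highest of its group. The log2 fold change was 0.68 ± 0.079 (SE, edgeR adjusted p = 4.62e-06) in sh4 cells and 1.57 ± 0.080 (edgeR adjusted p = 1.80e-10) in shAMB cells. The rise was smaller in sh4 than in shAMB cells by 0.89 on the log2 scale (edgeR adjusted p = 6.71e-06). In EV cells MYCN was at 2146, 2138 and 2298 CPM with DMSO and at 2310, 2359 and 2234 CPM with doxycycline, ranges that overlap, and the log2 fold change was 0.07 (95% interval -0.10 to 0.24, edgeR adjusted p = 0.701). In xenografts MYCN was at 2508, 2433, 2887 and 2552 CPM in controls and at 6242, 8064, 8211 and 6112 CPM in tumours labelled RUNX1T1 KO, with no overlap and a log2 fold change of 1.46 ± 0.139 (edgeR adjusted p = 3.14e-05).

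MYCN alone took 0.208% ± 0.0030 (SD, n = 3) of all counts in shAMB DMSO libraries and 0.664% ± 0.043 in shAMB doxycycline libraries. It lies on chromosome 2 (15940550 to 15947007, plus strand, GENCODE v44, GRCh38). Its antisense gene MYCNOS, transcribed from the opposite strand, overlaps 3.56% of the MYCN exon bases, and whether counting used the strand is not given in the sources used here. MYCNOS rose beside MYCN, from 26.1 ± 4.68 to 60.6 ± 12.6 CPM in sh4 cells, from 23.0 ± 1.61 to 79.3 ± 5.36 CPM in shAMB cells and from 32.2 ± 5.25 to 101 ± 22.1 CPM in xenografts (edgeR adjusted p = 3.91e-06, 2.51e-08 and 4.37e-05). For every 100 CPM of MYCN there were 0.97 to 1.84 CPM of MYCNOS over the 26 libraries.

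MYC, the relative that MYCN replaces here, was nearly absent. It had 1 to 14 counts per library in culture and 1 to 8 in xenografts, where 3 counts is the level below which a count was treated as background. With shAMB doxycycline it had 9, 14 and 13 counts against 4, 2 and 2 with DMSO, a mean of 0.25 against 0.07 CPM, and the groups did not overlap. MYC did not pass the filter, and in a fit without the filter it was higher in shAMB doxycycline (log2 fold change 1.77, edgeR adjusted p = 0.0177), while the difference from the EV effect was not called (edgeR adjusted p = 0.209).

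**Figure D1:**
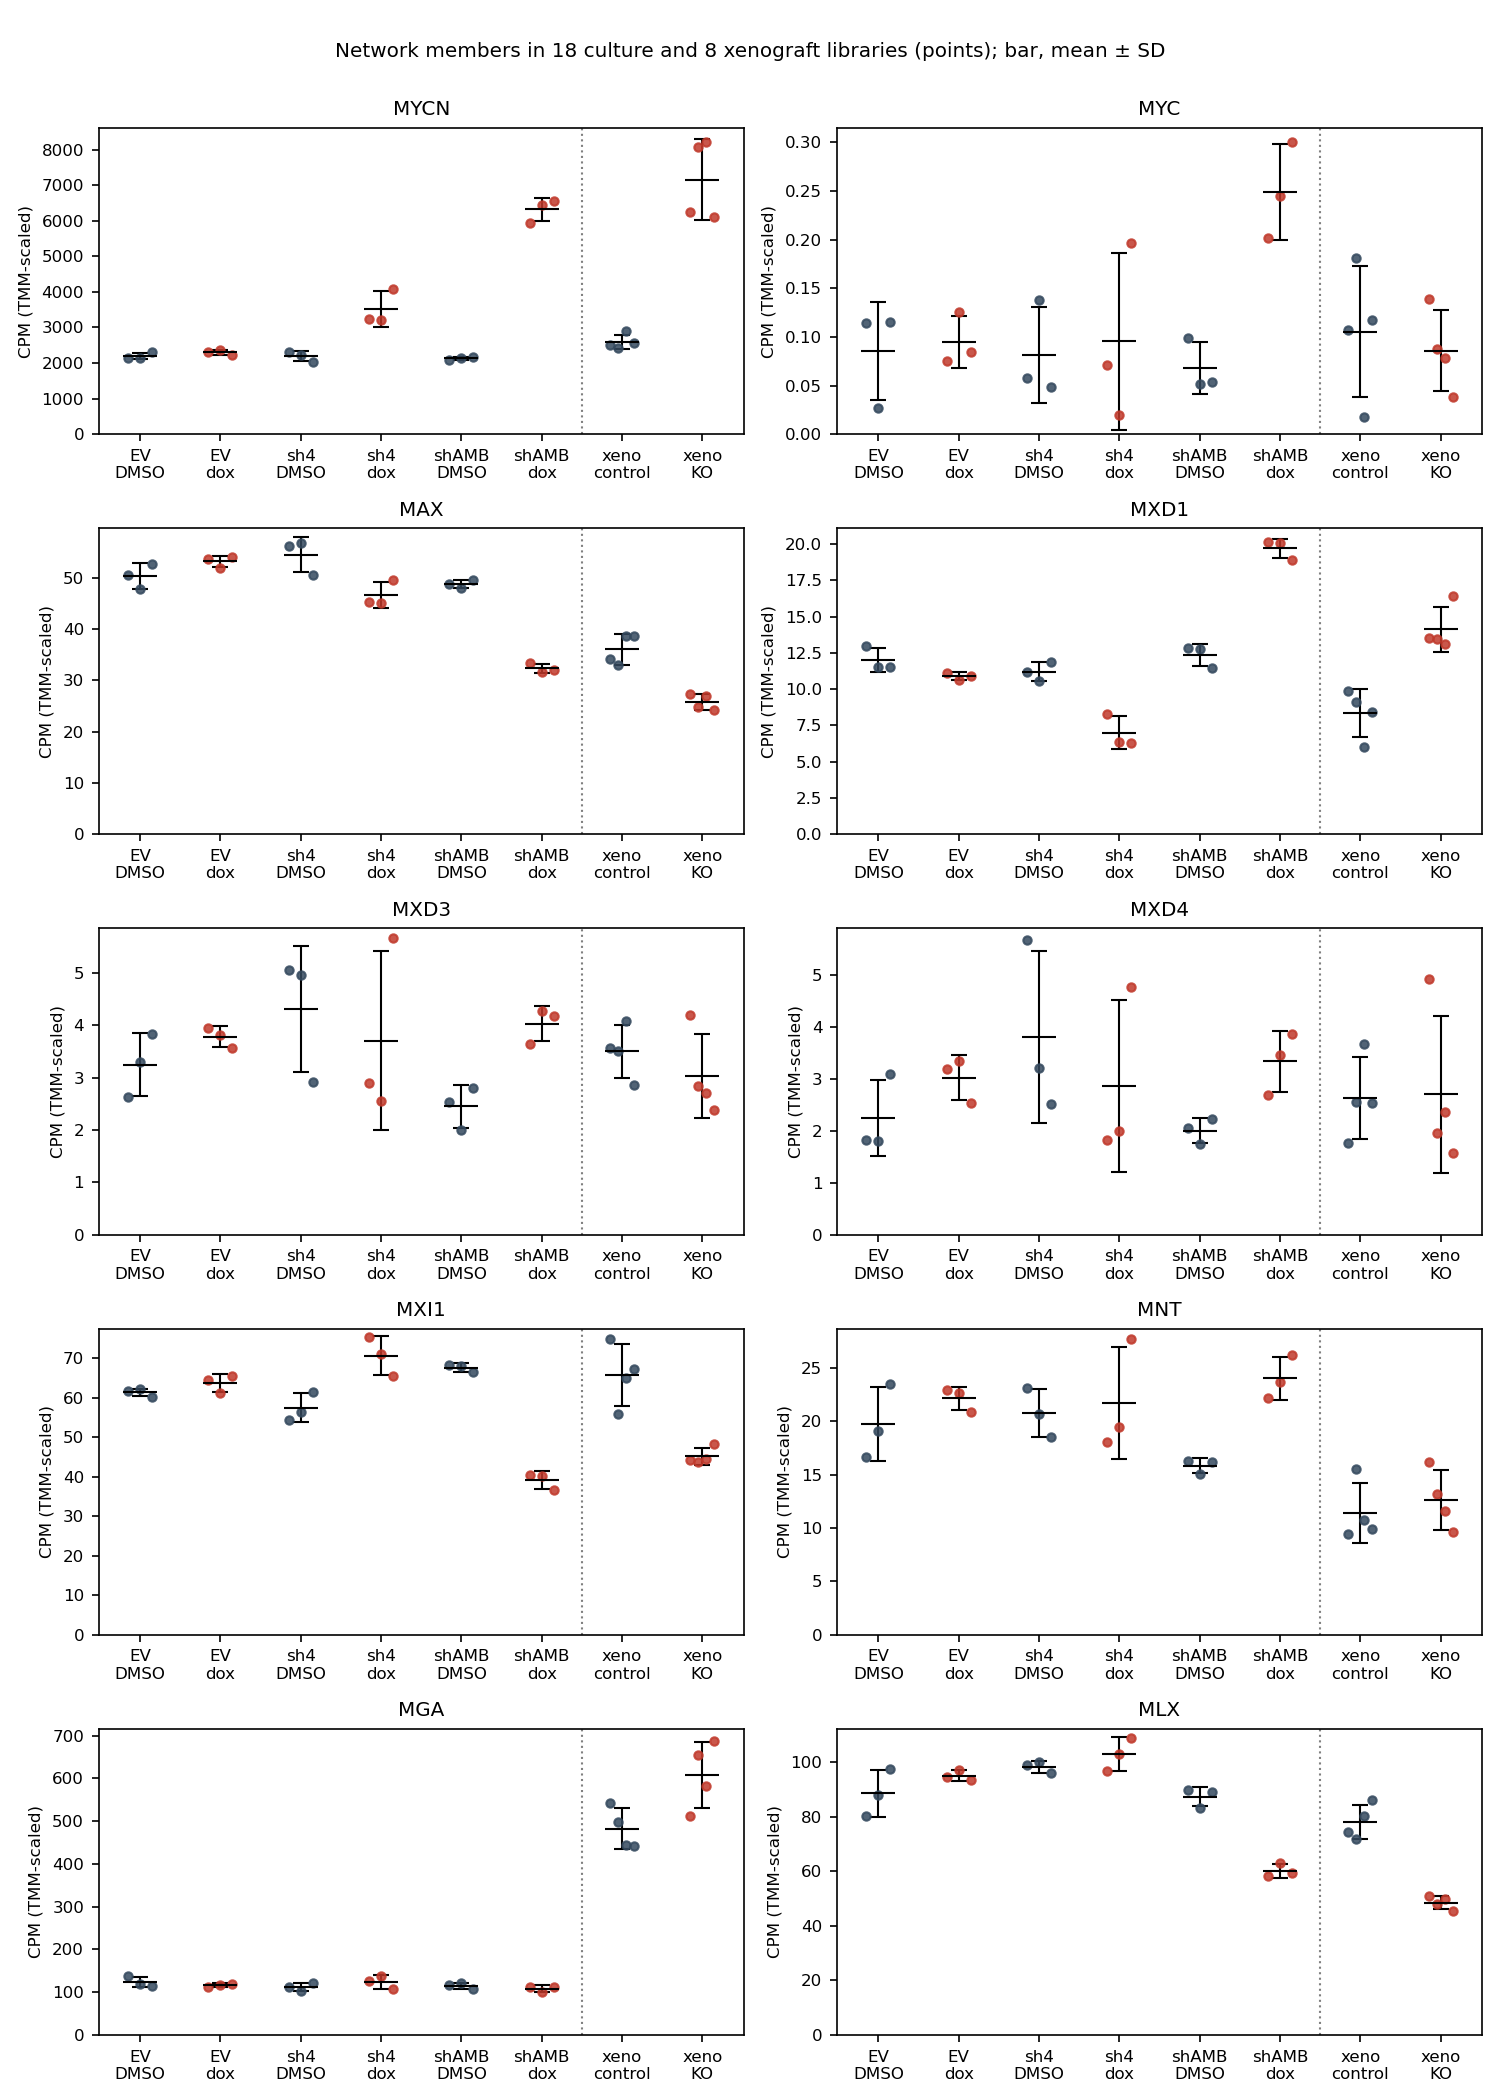
CPM (TMM-scaled, axis from 0) of each of the 10 members in the 8 groups, with 1 point per library and bars for the mean ± SD; red marks doxycycline or RUNX1T1 KO, and the dotted line parts the culture from the xenograft table. MYCN in shAMB doxycycline libraries sits at 5944 to 6561 CPM, above all other culture libraries, while MAX at 31.7 to 33.3 CPM sits below them.

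MAX, the obligate partner, moved the opposite way. In shAMB cells it was at 48.8, 48.1 and 49.5 CPM with DMSO and at 33.3, 31.7 and 32.1 CPM with doxycycline. In sh4 cells it was at 56.2, 56.8 and 50.6 CPM with DMSO and at 45.4, 45.1 and 49.7 CPM with doxycycline. Neither pair of groups overlapped, although in sh4 cells the gap between the third library of each group was under 1 CPM. MAX fell by 0.59 on the log2 scale in shAMB cells (SE 0.055, edgeR adjusted p = 1.57e-07) and by 0.22 in sh4 cells (SE 0.054, edgeR adjusted p = 0.00362), and the sh4 call was lost when only the 2 groups compared were fitted (edgeR adjusted p = 0.0733). In xenografts MAX was at 34.1, 32.9, 38.7 and 38.6 CPM in controls and at 27.4, 24.8, 26.9 and 24.2 CPM in tumours labelled RUNX1T1 KO, a fall by 0.48 on the log2 scale (edgeR adjusted p = 0.00234). EV cells showed 0.08 (95% interval -0.04 to 0.19, edgeR adjusted p = 0.672). MAX exons share 16.1% of their bases with genes on the other strand, FNTB among them.

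Since MYCN went up while MAX went down, the ratio of their levels per kilobase of gene length moved further than either gene. MYCN stood at 41.9 ± 1.17 times MAX (SD, n = 3) in sh4 DMSO and 78.1 ± 6.72 times in sh4 doxycycline. In shAMB cells the ratio was 45.5 ± 0.82 with DMSO and 204 ± 15.4 with doxycycline. In EV cells it was 45.4 ± 1.17 and 45.1 ± 2.14. Xenograft controls were at 75.1 ± 4.12 (n = 4) and tumours labelled RUNX1T1 KO at 290 ± 46.8. These ratios describe RNA levels of 2 chosen genes and carry no test.

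**Figure D2:**
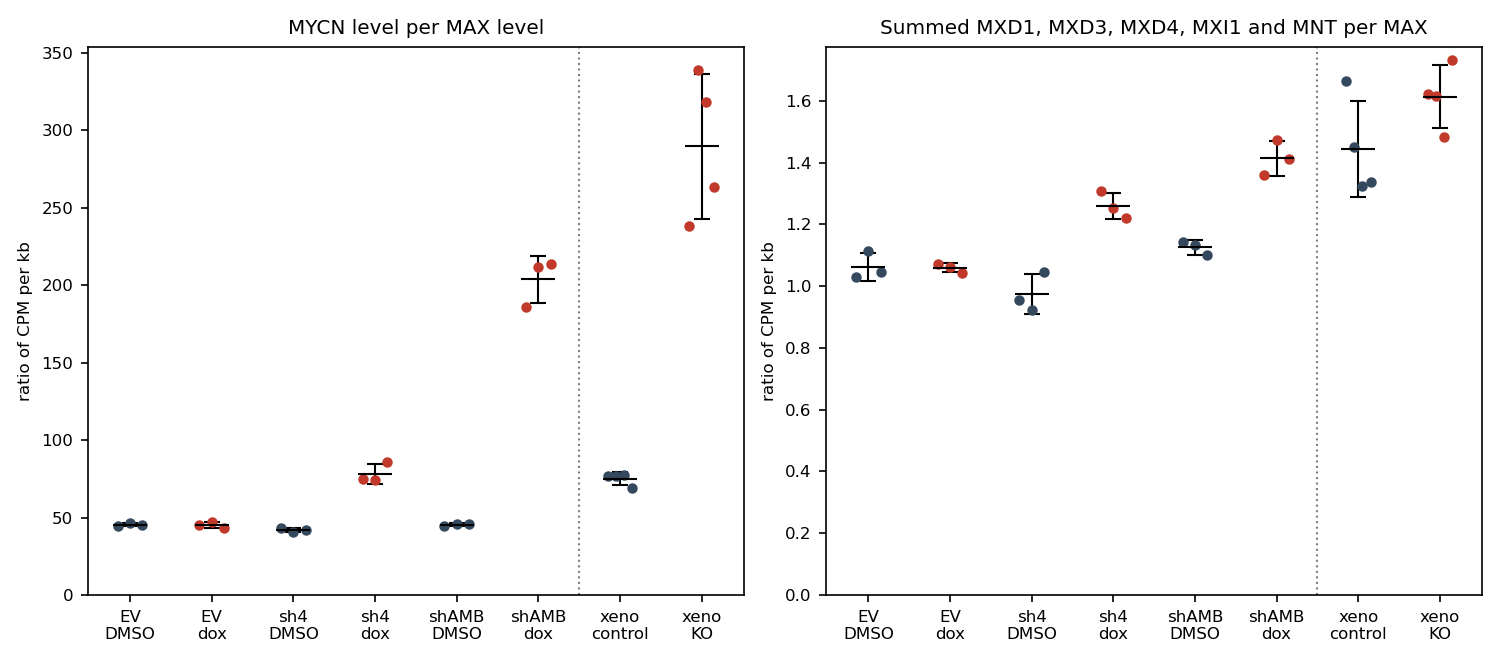
Ratio of CPM per kilobase within each library (axes from 0), with MYCN over MAX on the left and the summed MXD1, MXD3, MXD4, MXI1 and MNT over MAX on the right; points are libraries and bars the mean ± SD. MYCN over MAX lies between 40.7 and 47.4 in the 4 culture groups without an induced hairpin and between 186 and 213 in shAMB doxycycline.

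MXI1, the most abundant antagonist per kilobase in every group, changed in opposite directions with the 2 hairpins. In sh4 cells it was at 54.5, 56.5 and 61.5 CPM with DMSO and at 75.2, 71.1 and 65.4 CPM with doxycycline, a rise of 0.30 ± 0.058 on the log2 scale (edgeR adjusted p = 0.000672). In shAMB cells it was at 68.3, 68.1 and 66.4 CPM with DMSO and at 40.5, 40.3 and 36.6 CPM with doxycycline, and it fell by 0.79 on the log2 scale (SE 0.059, edgeR adjusted p = 1.30e-08). No groups overlapped, and the 2 effects differed by 1.09 on the log2 scale (edgeR adjusted p = 3.11e-08). Against the EV effect the sh4 rise of 0.24 had an edgeR adjusted p of 0.0333, which was lost on leaving out any 1 of 8 of the 12 libraries of those 4 groups, with the length and GC trends removed (0.12, edgeR adjusted p = 0.0520), with no count filter (edgeR adjusted p = 0.103) and with only the groups compared (edgeR adjusted p = 0.0561). The rise within sh4 cells kept its call with the trends removed, at 0.22. In xenografts MXI1 was at 75.0, 56.0, 64.9 and 67.4 CPM in controls and at 44.1, 43.6, 44.6 and 48.3 CPM in tumours labelled RUNX1T1 KO, a fall by 0.54 on the log2 scale (edgeR adjusted p = 0.00139).

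MXD1, an antagonist usually linked to differentiation, showed the mirror image. In sh4 cells it was at 11.2, 10.6 and 11.9 CPM with DMSO and at 8.31, 6.37 and 6.31 CPM with doxycycline, and it fell by 0.68 on the log2 scale (SE 0.098, edgeR adjusted p = 4.23e-05). In shAMB cells it was at 12.8, 12.7 and 11.4 CPM with DMSO and at 20.1, 20.0 and 18.9 CPM with doxycycline, a rise of 0.67 ± 0.096 (edgeR adjusted p = 1.63e-05). The sh4 effect was below the shAMB effect by 1.35 on the log2 scale (edgeR adjusted p = 7.41e-07). In xenografts MXD1 was at 9.84, 9.12, 6.02 and 8.41 CPM in controls and at 13.5, 13.4, 13.1 and 16.4 CPM in tumours labelled RUNX1T1 KO, a rise of 0.76 ± 0.165 (edgeR adjusted p = 0.00390). Within the sum of the 5 antagonists per kilobase, the MXI1 share went from 74.3% ± 0.97 (SD, n = 3) to 51.6% ± 2.62 in shAMB cells while the MXD1 share went from 7.97% ± 0.45 to 15.3% ± 0.46. In EV cells MXD1 was at 13.0, 11.5 and 11.5 CPM with DMSO and at 11.1, 10.6 and 10.9 CPM with doxycycline, groups that did not overlap, with a log2 fold change of -0.14 that was not called (edgeR adjusted p = 0.672).

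MNT, MXD3 and MXD4 are the GC-rich members, with 63.0%, 64.4% and 61.8% GC against 43.0% to 54.6% in the other 7. In culture the values of most members, MYCN among them, went with the GC trend of a library. For each library the slope of log2 CPM on GC content over genes of at least 1 CPM was measured after subtracting group means. Over the 18 culture libraries this slope had a Pearson r of 0.98 with the deviation of MNT from its group mean, 0.95 with that of MXD4, 0.91 with that of MXD3, 0.90 with that of MYCN, 0.79 with that of MLX and 0.59 with that of MAX, and of -0.83, -0.73 and -0.64 with those of MXI1, MGA and MXD1, given as a description over libraries that share group means. Over the 8 xenografts the r for MYCN was only 0.17, while those for the other members had the same signs as in culture and were 0.57 to 0.91 in size. Without subtracting group means, the slope was -0.32 to -0.15 (log2 per 10% GC) in shAMB DMSO libraries and 0.05 to 0.27 in shAMB doxycycline libraries, so the trend also moved with the treatment in that line.

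MNT, a broadly expressed antagonist, was at 16.2, 15.05 and 16.2 CPM in shAMB DMSO and at 22.2, 23.6 and 26.2 CPM in shAMB doxycycline, with no overlap, and it rose by 0.60 ± 0.147 on the log2 scale (edgeR adjusted p = 0.00211). With the trends in gene length and GC content removed from each library the direction turned, to -0.27 (edgeR adjusted p = 0.00697). MXD3 was at 2.54, 2.00 and 2.81 CPM and at 3.65, 4.27 and 4.18 CPM in the same groups, a rise of 0.72 ± 0.269 (edgeR adjusted p = 0.0273), which also turned, to -0.16 (edgeR adjusted p = 0.241), and lost its call on leaving out any 1 of 4 libraries. MXD3 exons share 24.2% of their bases with PRELID1 on the other strand. MXD4 was at 2.05, 1.74 and 2.22 CPM and at 2.69, 3.46 and 3.85 CPM, a log2 difference of 0.74 that was not called (95% interval -0.02 to 1.49, edgeR adjusted p = 0.0806). It was called when only the 2 groups compared were fitted (0.66, edgeR adjusted p = 0.00484) and was -0.01 with the trends removed. The directions of MNT, MXD3 and MXD4 in shAMB cells therefore depend on how GC content is handled. MYCN, MAX, MXD1, MXI1 and MLX kept their shAMB calls and directions under the same removal, at log2 changes of 1.52, -0.62, 0.65, -0.62 and -0.73.

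In sh4 cells none of the 3 was called, but with the trends removed MNT was called higher (0.29, edgeR adjusted p = 0.00602). MNT was at 23.1, 20.6 and 18.6 CPM with DMSO and at 18.02, 19.4 and 27.7 CPM with doxycycline. MXD3 was at 5.06, 4.96 and 2.91 CPM and at 2.90, 2.55 and 5.67 CPM, and MXD4 was at 5.67, 3.21 and 2.52 CPM and at 1.82, 1.99 and 4.76 CPM. The third sh4 doxycycline library was the highest of its group for all 3 and had the steepest GC slope of the 18 libraries (0.29 after subtracting group means). Without it MXD3 fell by 0.67 on the log2 scale and MXD4 by 1.00 (edgeR adjusted p = 0.0151 and 0.0111), and MGA rose by 0.23 (edgeR adjusted p = 0.0314). The number of members called went from 4 to 7. Calls over all genes for sh4 minus EV also rose without this library, so the count is not a result about the members. In xenografts the log2 fold change was 0.15 for MNT, -0.21 for MXD3 and 0.04 for MXD4, none of them called (edgeR adjusted p = 0.580, 0.472 and 0.947).

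**Figure D3:**
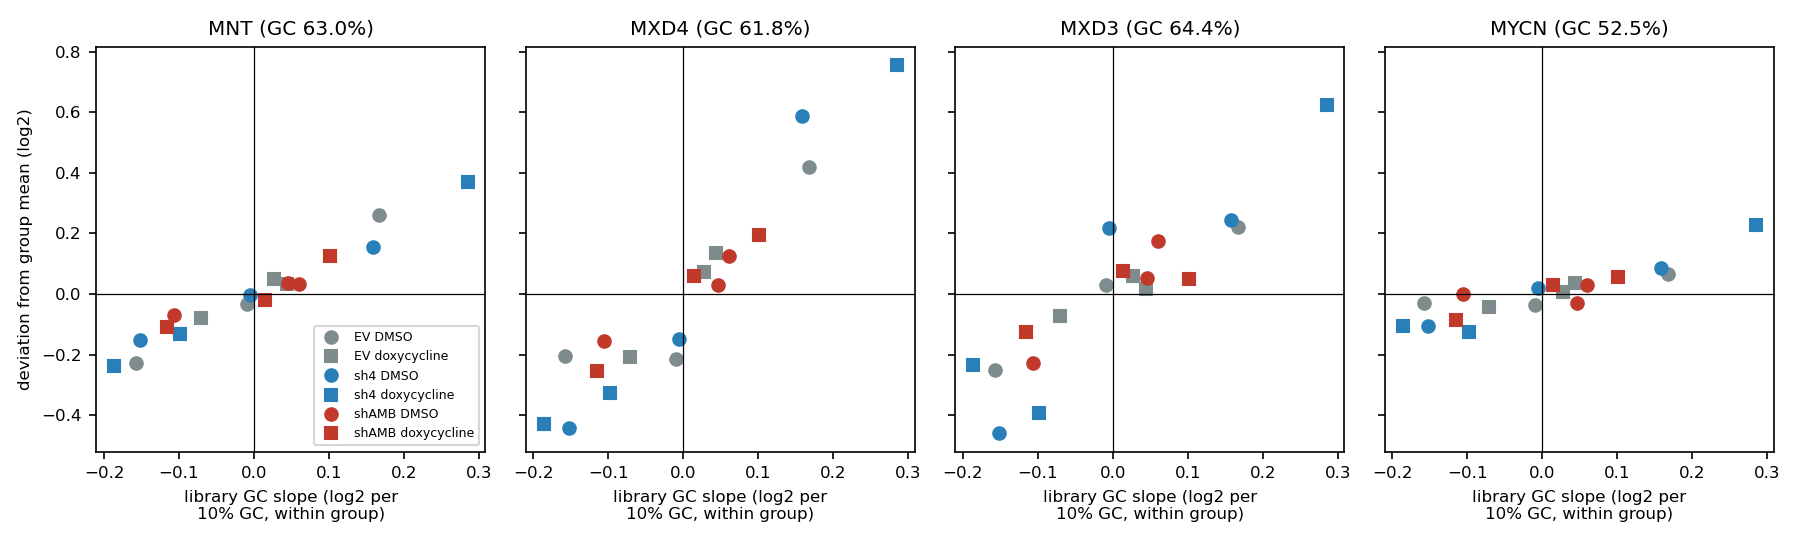
Deviation of 4 members from their group mean (log2 CPM) in the 18 culture libraries against the GC slope of the library (log2 per 10% GC, group means subtracted); colour gives the line and shape the treatment. MNT, MXD4, MXD3 and MYCN climb with the slope, and the sh4 doxycycline library at 0.29 lies at the upper right of every panel.

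MLX, the hub of the glucose-sensing branch, was at 89.7, 83.3 and 89.0 CPM in shAMB DMSO and at 58.2, 63.1 and 59.3 CPM in shAMB doxycycline. It fell by 0.54 on the log2 scale with no overlap (SE 0.063, edgeR adjusted p = 2.13e-06). In xenografts it was at 74.4, 71.9, 80.2 and 85.9 CPM in controls and at 50.9, 47.9, 49.7 and 45.4 CPM in tumours labelled RUNX1T1 KO, a fall by 0.69 (edgeR adjusted p = 0.000138). In sh4 cells it was at 99.0, 99.9 and 95.8 CPM with DMSO and at 96.7, 103 and 109 CPM with doxycycline, overlapping ranges with a log2 fold change of 0.07 (95% interval -0.07 to 0.20, edgeR adjusted p = 0.418), and with the length and GC trends removed it was called higher (0.13, edgeR adjusted p = 0.00404). The 2 hairpin effects differed by 0.60 on the log2 scale (edgeR adjusted p = 3.46e-05).

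MGA, the scaffold that joins MAX to Polycomb proteins, was the steadiest member in culture, at 99.4 to 138 CPM across the 18 libraries with overlap between all neighbours in the order of group means, and it was not called in any culture line. With shAMB it was, however, called lower with the trends removed (-0.23, edgeR adjusted p = 6.99e-06) and with only the 2 groups compared (-0.16, edgeR adjusted p = 0.0429). In xenografts it was at 543, 499, 445 and 442 CPM in controls and at 513, 654, 581 and 687 CPM in tumours labelled RUNX1T1 KO. The groups overlapped, the log2 fold change was 0.34 ± 0.115 (edgeR adjusted p = 0.0373), and leaving out any 1 of 6 of the 8 libraries or removing the length and GC trends ended the call. The culture and xenograft tables were scaled apart, so their levels were not tested against each other, but the order within a library differed: per kilobase, MGA ranked 5 of the 10 members in culture control groups (10.4 CPM per kb in EV DMSO) and next after MYCN in xenograft controls (40.6 CPM per kb).

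Counted together, 0 of the 9 tested members were called in EV cells, where 0.0939% of the 14905 genes tested were called, and 0 had an unadjusted edgeR p below 0.05. DESeq2 also called 0. With sh4, 4 of 9 were called (2 higher, 2 lower), against a background of 40.9% of all genes (22.9% higher, 18% lower). With the length and GC trends removed 6 were called (4 higher, 2 lower). Of the 14905 genes, 4254 were then called higher and 3895 lower, where the main fit had 3410 and 2681. With shAMB, 7 of 9 were called (4 higher, 3 lower), against 66% (37.6% higher, 28.4% lower). With the same trends removed the 7 called were 2 higher and 5 lower, beside 5548 of the 14905 genes higher and 5095 lower. In xenografts 6 of 9 were called (3 higher, 3 lower), against 41.1% of 15960 genes (21.2% higher, 19.9% lower). With the trends removed 5 were called (2 higher, 3 lower), beside 4199 of the 15960 genes higher and 4132 lower. The sh4 and shAMB counts are near their backgrounds. With only 9 members tested, neither these nor the xenograft count, in either fit, is a result about the network. The median absolute log2 change of the members was 0.23 with sh4, 0.67 with shAMB and 0.48 in xenografts, beside 0.26, 0.42 and 0.35 over all genes tested.

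Set against the EV effect, which both hairpins share as control, 4 of 9 members were called for sh4 (background 32.6%) and 5 of 9 for shAMB (background 45.5%). Between the 2 hairpin effects 7 of 9 were called (background 60.9%). Among DMSO libraries, 0 of 9 members were called between sh4 and EV (background 1.12%) and 0 of 9 between shAMB and EV (background 1.52%), with 2 at an unadjusted edgeR p below 0.05 in each. DESeq2 also called 0 in each, with 2 at an unadjusted p below 0.05. With backgrounds this low, a count of 0 of 9 cannot show that the hairpin lines started from the EV levels. With the length and GC trends removed, edgeR called 1 member, MNT, lower in sh4 DMSO than in EV DMSO, and 0 for shAMB. In CPM, MXI1 did not overlap between shAMB DMSO (66.4 to 68.3) and EV DMSO (60.3 to 62.1). Neither did MNT (15.05 to 16.2 and 16.6 to 23.5). The other tested members overlapped there, and all overlapped between sh4 DMSO and EV DMSO. MXI1 and MNT were not called between shAMB DMSO and EV DMSO (edgeR adjusted p = 0.374 and 0.450). The share of all genes without overlap is not given here, so these ranges are a description and not a result about the members.

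**Figure D4:**
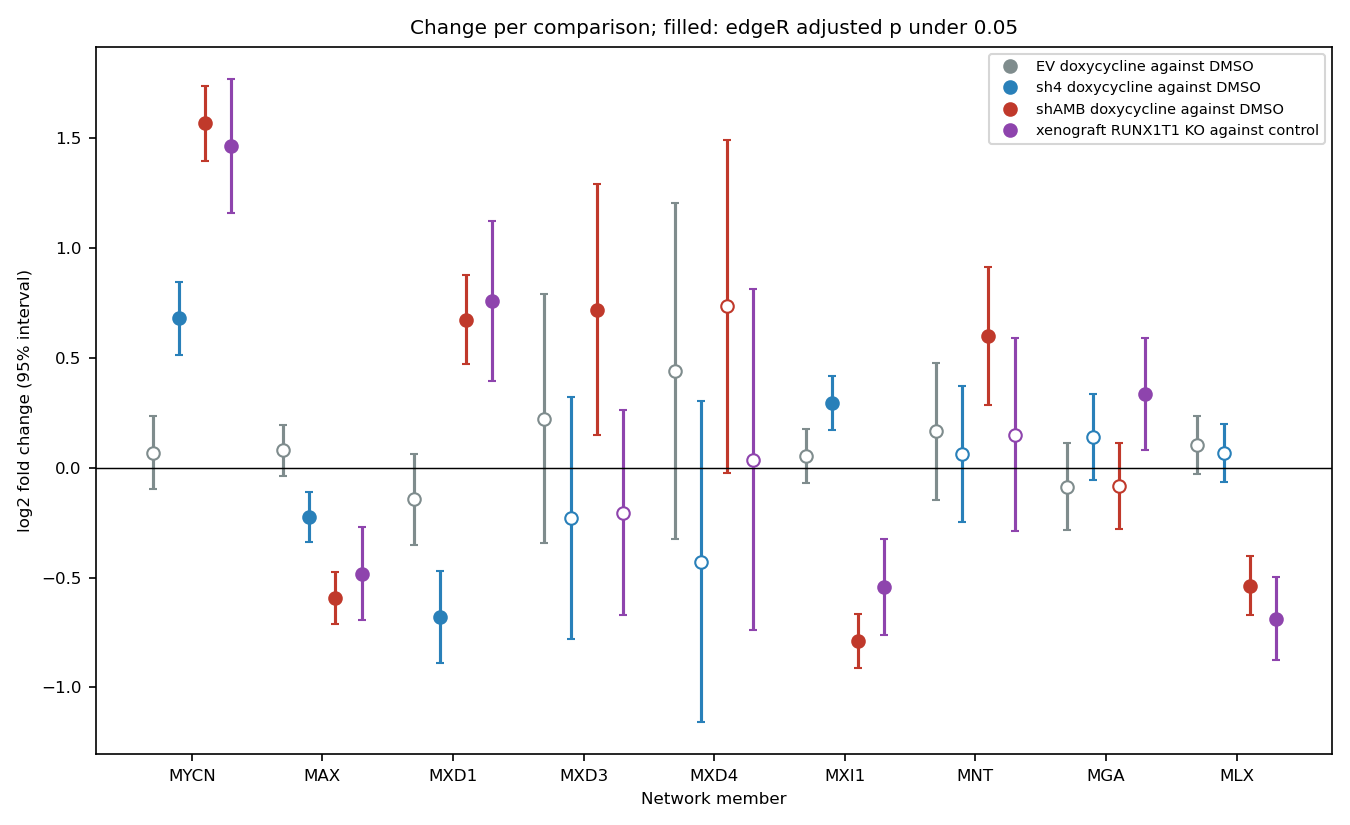
Log2 fold change with 95% interval for the 9 tested members (x axis) in the 3 culture lines and the xenografts; filled points passed the edgeR adjusted p threshold of 0.05. MYCN is the highest point for shAMB at 1.57 and for xenografts at 1.46, and MXD1 and MXI1 take opposite signs with sh4 and shAMB.

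The expected counts and TPM together give the mean transcript length that the quantification implied for a gene. With shAMB this length was called changed (limma adjusted p below 0.05) for 4 of 8 tested members, against 62.3% of all 11395 genes tested. The MAX length went from 1916 ± 22.9 to 1863 ± 9.32 bases (SD, n = 3), a change of -2.77% (limma adjusted p = 0.00226), and that of MYCN from 1847 ± 8.50 to 1905 ± 13.5 bases (limma adjusted p = 0.0231). In xenografts MAX went from 1882 ± 26.2 to 1815 ± 11.9 bases (n = 4, limma adjusted p = 0.0457), 1 of 5 tested members called against 2.85% of all genes, and 7 of the 8 ways of leaving out 1 library ended that call. With sh4 0 of 8 were called (background 1.33%) and in EV cells 0 of 8 (background 0%), with 0 at an unadjusted limma p below 0.05 in both.

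Over the 18 culture libraries, the genes whose log2 CPM was most like that of MYCN were PRKCE (Pearson r = 0.99), FNBP1 and OLFM1 (both 0.99), out of 12709 genes of at least 1 CPM. Over the 8 xenografts the same genes had r of 0.95, 0.93 and 0.43. The genes most like MAX were SSU72 (0.99), MRPL37 (0.98) and TMEM164 (0.98), with 0.99, 0.99 and 0.96 in xenografts. The points share their groups, so these values mostly describe the group means.

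In the wider network, levels are group means of 3 libraries (4 in xenografts). The counts of called genes in the lists below stand against 40.9% of all genes called with sh4, 66% with shAMB and 41.1% in xenografts. With the length and GC trends removed, 5548 of the 14905 genes tested were called higher and 5095 lower with shAMB. In xenografts 4199 of 15960 were then called higher and 4132 lower. The list counts, in either fit, are not a result about any list. MYCL, another MYC paralogue, rose with sh4 from 0.95 to 2.43 CPM (edgeR adjusted p = 8.86e-06) and was at 1.25 and 1.44 CPM in shAMB cells (edgeR adjusted p = 0.312). MLXIP was called in none of the 4 treatment comparisons in the main fit. With the length and GC trends removed, 1 of the 2 tested genes of the list of other network members was called lower with shAMB, and 1 in xenografts. Of 17 co-activators of MYC, 0 rose and 5 fell with sh4, 10 rose and 2 fell with shAMB, and 1 rose and 4 fell in xenografts. TRRAP, the scaffold of acetyltransferase complexes, went from 67.5 to 144 CPM with shAMB (edgeR adjusted p = 1.15e-07), RUVBL2 from 25.2 to 69.6 CPM (edgeR adjusted p = 0.000578) and ZBTB17, which carries MYC to repressed promoters, from 6.24 to 14.8 CPM (edgeR adjusted p = 0.00297). ZBTB17 is counted in this list although that role is in repression. With length and GC trends removed the log2 change of TRRAP went from 1.09 to 0.64 and that of ZBTB17 from 1.24 to 0.43, and the shAMB count became 8 higher and 8 lower. The difference of ZBTB17 from the EV effect was not called (edgeR adjusted p = 0.117). With the trends removed RUVBL2 was called lower with sh4 (-0.50, edgeR adjusted p = 0.00503) and higher in xenografts (0.24, edgeR adjusted p = 0.0411). TRRAP and ZBTB17 were then called neither with sh4 (-0.07 and 0.01) nor in xenografts (0.07 and 0.09). The median log2 change of this list was 0.40 with shAMB, beside 0.10 over all genes, and -0.10 without the trends.

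Of 21 co-repressor genes, those of the SIN3 complex among them, that MXD proteins and MNT work through, 5 rose and 9 fell with shAMB, 3 rose and 2 fell with sh4, and 2 rose and 8 fell in xenografts. With the trends removed the shAMB count was 3 higher and 14 lower. HDAC1, a catalytic subunit, fell from 134 to 85.1 CPM with shAMB (edgeR adjusted p = 3.78e-10) and from 92.1 to 51.7 CPM in xenografts (edgeR adjusted p = 8.01e-05), and rose from 138 to 167 CPM with sh4 (edgeR adjusted p = 1.06e-05). TBL1X fell from 43.9 to 30.0 CPM with shAMB (edgeR adjusted p = 9.09e-07). Of 11 Polycomb partners of MGA and MAX, 6 rose and 1 fell with sh4, 0 rose and 5 fell with shAMB (3 and 6 with the trends removed), and 1 rose and 4 fell in xenografts. CBX1, which reads methylated histone H3, rose from 539 to 687 CPM with sh4 and fell from 632 to 341 CPM with shAMB (edgeR adjusted p = 0.000618 and 1.88e-08). RYBP rose from 105 to 133 CPM and fell from 117 to 90.7 CPM in the same lines (edgeR adjusted p = 0.000121 and 3.67e-05), its shAMB log2 change going from -0.37 to -0.19 with the trends removed, and TFDP1 fell from 162 to 115 CPM with shAMB (edgeR adjusted p = 8.16e-07).

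Of 25 genes known as E-box bound MYC targets, 1 rose and 10 fell with sh4, 8 rose and 9 fell with shAMB, and 1 rose and 10 fell in xenografts, with medians of -0.18, 0.05 and -0.26 beside -0.00, 0.10 and 0.02 over all genes. With the trends removed the shAMB count became 9 higher and 13 lower, and the median turned to -0.15. PTMA, a chromatin-associated acidic protein, fell from 2256 to 603 CPM with shAMB and from 1200 to 335 CPM in xenografts (edgeR adjusted p = 2.22e-14 and 3.31e-06) and was at 2302 and 2221 CPM in sh4 cells (edgeR adjusted p = 0.317). BOP1, a ribosome assembly factor, rose from 11.6 to 38.2 CPM and TERT, the telomerase subunit, from 1.91 to 4.95 CPM with shAMB (edgeR adjusted p = 0.00172 and 0.000985). With the trends removed the log2 change of BOP1 went from 1.72 to 0.76 and that of TERT from 1.37 to 0.50. In the main fit neither differed from the EV effect by a call (edgeR adjusted p = 0.0729 and 0.0668). With the trends removed BOP1 did (0.59, edgeR adjusted p = 0.0288) and TERT did not (0.40, edgeR adjusted p = 0.161). Of 21 tested regulators of MYC protein turnover, 5 rose and 4 fell with sh4, 10 and 6 with shAMB and 4 and 4 in xenografts. With the trends removed the shAMB count was 8 higher and 10 lower, and the median went from 0.18 to -0.05. The ubiquitin ligase component FBXO32 rose in all 3, from 6.39 to 14.4, from 8.45 to 16.8 and from 12.4 to 22.6 CPM (edgeR adjusted p = 1.65e-07, 3.87e-07 and 0.00161). STUB1 rose from 5.39 to 12.6 CPM and AXIN1 from 6.84 to 12.3 CPM with shAMB (edgeR adjusted p = 0.00617 and 0.00356), the first going from a log2 change of 1.22 to 0.45 and the second from 0.84 to -0.07 with the trends removed. Neither differed from the EV effect by a call (edgeR adjusted p = 0.249 and 0.100).

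All 5 genes fixed as glucose-responsive targets of MLX and MondoA were called with both hairpins, 2 higher and 3 lower in each, and in xenografts 2 rose and 1 fell. Over all genes 40.9% were called with sh4, 66% with shAMB and 41.1% in xenografts, and 5 genes are too few to read as a result about the list. TXNIP, a glucose uptake inhibitor, fell from 164 to 82.2 CPM with sh4 and from 165 to 90.7 CPM with shAMB (edgeR adjusted p = 6.27e-09 and 1.21e-08). PFKFB3 rose from 6.52 to 11.4, from 6.03 to 13.4 and from 5.85 to 11.3 CPM with sh4, with shAMB and in xenografts (edgeR adjusted p = 1.97e-05, 1.96e-07 and 0.00159), the shAMB log2 change going from 1.16 to 0.57 with the trends removed. ARRDC3 rose from 56.3 to 97.6, from 62.7 to 127 and from 69.3 to 184 CPM (edgeR adjusted p = 1.73e-06, 4.44e-08 and 0.000246). In EV cells TXNIP was at 185 CPM with DMSO and 154 CPM with doxycycline (edgeR adjusted p = 0.314), and with the trends removed it was called lower there as well (-0.23, edgeR adjusted p = 0.00414). Near MYC, the non-coding gene PVT1 rose from 5.39 to 6.48 CPM with shAMB (edgeR adjusted p = 0.0125). It was at 5.83 and 6.31 CPM in EV cells and at 5.66 and 6.56 CPM in sh4 cells. With the trends removed PVT1 was also called higher with sh4 (0.26, edgeR adjusted p = 0.00763). The difference of its shAMB effect from the EV effect was then not called (0.25, edgeR adjusted p = 0.0614).

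The xenografts could hold mouse cells, and how mouse reads were treated is not given in the sources used here. The summed level of 7 leukocyte markers was 1.17 to 1.63 CPM in controls and 1.86 to 2.81 CPM in tumours labelled RUNX1T1 KO, that of 7 endothelial markers 8.88 to 15.1 and 10.9 to 16.3 CPM, and that of 7 fibroblast markers 57.8 to 94.8 and 85.7 to 129 CPM. Haemoglobin genes were at or below 3 counts in every library. The sums also differed in culture. The endothelial sum was 2.27 to 2.68 CPM in shAMB DMSO and 5.62 to 8.03 CPM in shAMB doxycycline. In the same groups the leukocyte sum was 0.65 to 0.78 and 1.52 to 2.33 CPM, and the fibroblast sum 77.7 to 91.9 and 89.2 to 107 CPM. The part of these markers in the results was not tested. In bulk libraries, fewer cells of a type and less RNA per cell cannot be told apart.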

How the data were processed

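RNA was sequenced from 18 culture and 8 xenograft libraries, for which the labels name both polyA RNA and a kit for stranded total RNA. The authors deposited RSEM expected counts, which can be fractional, and TPM, with gene lengths in bases as another deposited column. Per the labels' processing notes, STAR, SAMtools, RSEM and hg38 were used, with versions and annotation not given in the sources used here. Culture columns named Neg were taken for DMSO and those named Pos for doxycycline, and the direction of every culture comparison rests on this reading.

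Expected counts were rounded and fitted with edgeR 4.0.16 in R 4.3.3 (filterByExpr, TMM, quasi-likelihood F test, two-sided), with 1 mean per group over all libraries of a table and Benjamini-Hochberg adjustment over 14905 culture and 15960 xenograft genes. TMM factors were 0.974 to 1.07 and 0.936 to 1.09. Implied transcript lengths were log2 of count over TPM, centred per library and tested with limma 3.58.1 in genes of at least 50 counts and 1 TPM in every library. Correlations used log2 of CPM plus 0.5. Scripts were tested on simulated data. Replicates of a group differed by more than sampling noise (chi-square per degree of freedom 1.80 to 248).

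All 10 members were named in every comparison, and from each list up to 3 genes with the largest change among those called with shAMB at a mean of at least 1 CPM. Of the genes this rule gives, 1 is not reported here. MYCL and MLXIP were named beyond that rule, after their values were seen. The members and lists were chosen with earlier results of these data known. Alternatives were RLE scaling, no count filter, DESeq2 1.42.0, a replicate block, removal of length and GC trends by natural splines (5 degrees of freedom, GC known for 87.4% of genes), the compared groups alone and leaving out each library. Gene positions came from GENCODE v44. Counting was taken to be without molecular identifiers, which no source used here names.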

Additional observations from a re-analysis of the deposited data

Results flagged for a closer look

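In the tumours labelled RUNX1T1 KO, 1 library stood apart from the other 3 for MXD1, at 16.4 CPM against 13.1 to 13.5 CPM (Dixon's test). It was the only one of 24 groups of 4 so singled out, and chance singles out about 1 group in 20.

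The doxycycline effect differed between lines for several members (edgeR interaction). The sh4 effect minus the EV effect was -0.30 on the log2 scale for MAX, -0.54 for MXD1, 0.24 for MXI1 and 0.61 for MYCN. The shAMB effect minus the EV effect was -0.67 for MAX, -0.64 for MLX, 0.82 for MXD1, -0.84 for MXI1 and 1.501 for MYCN. Both use the same EV libraries. The sh4 effect minus the shAMB effect was 0.37 for MAX, 0.60 for MLX, -0.54 for MNT, -1.35 for MXD1, -0.95 for MXD3, 1.09 for MXI1 and -0.89 for MYCN. The MNT and MXD3 differences turned direction with length and GC trends removed, and each lost its call on leaving out any 1 of at least 8 of 12 libraries.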

How the results depend on the processing

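With length and GC trends removed, 24 of 81 single-member log2 values changed sign. In 7 of them the value was called before or after the removal: in shAMB cells MXD3 to -0.16 and MNT to -0.27, for sh4 minus EV MNT to 0.37, for shAMB minus EV MGA to -0.25, for sh4 minus shAMB MXD3 to 0.25 and MNT to 0.56, and for sh4 DMSO against EV DMSO MNT to -0.38 (all log2). The last comparison then had 1 member called. Values not called on either side also changed sign: 1 each under RLE scaling, DESeq2 and the compared groups alone, 2 each with no filter and the replicate block, and 21 of 666 on leaving out 1 library. No called value did so under these. On leaving out 1 library, called members numbered 4 to 7 for sh4, 3 to 7 for sh4 minus EV, 5 to 10 for sh4 minus shAMB (MYC then passing the filter) and 6 to 8 for shAMB, and the most for sh4, sh4 minus EV and sh4 minus shAMB came without sh4 doxycycline replicate 3. Changed lengths numbered 1 to 5 for shAMB and 0 to 1 for xenografts, the 1 for shAMB coming without shAMB DMSO replicate 2 or shAMB doxycycline replicate 3. These counts of members stand here without the share of all genes called in the same fits and are not a result about the members.

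Counts over all genes moved from 14 to 55 (trends removed) and 6 (compared groups alone) for EV, from 6091 to 3727 (compared groups alone) for sh4, from 4856 to 7557 (without sh4 doxycycline replicate 3) for sh4 minus EV, from 167 to 770 (trends removed), 349 (DESeq2), 23 (compared groups alone) and 75 to 269 (1 library left out) for sh4 DMSO against EV DMSO, and from 227 to 807, 85 and 125 to 188 for shAMB DMSO against EV DMSO. Trend removal took the higher share of calls from 14.3% to 30.9% for EV and from 72.7% to 52.8% for shAMB DMSO. It also raised the counts for the other comparisons. They became 4254 higher and 3895 lower for sh4, and 5548 and 5095 for shAMB. They became 3354 and 3229 for sh4 minus EV, and 4381 and 4307 for shAMB minus EV. For sh4 minus shAMB they became 4880 and 4905, and in xenografts 4199 and 4132.

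Replicate numbers did not pair the libraries: same-number correlations ran from -0.897 to 0.563, and no comparison had every pair above 0.1. With a replicate block, 0 xenograft members had a changed length, MGA lost its xenograft call (adjusted p = 0.108) and MXD4 gained a call for sh4 minus shAMB (-1.23). Counts of a few reads limit MYC, and at 2 to 6 CPM MXD3 and MXD4 had wide intervals.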
